A study of Mus musculus with 23 samples.

Results

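The genes described here are 8 markers of the macrophage lineage: Csf1r, Cx3cr1, Adgre1, Cd68, Lyz2, Cd14, Fcgr1 and Itgam. They were chosen by name, with no measured value in the rule, but with earlier results of these data known. These are 8 of 18194 genes with a probe set of their own. They hold 12 of the 34958 probe sets annotated to 1 gene, and for each gene the probe set with the highest mean over 23 arrays gave the main value. Expression was measured in mouse colon on 1 Affymetrix array per sample, in 4 groups: 5 arrays of untreated and 6 of TNBS-treated wild-type mice, and 5 of untreated and 7 of TNBS-treated Fn14 knockout mice. The sample titles name the strain BALB/c for the wild-type groups and name no strain for the knockout groups. The receptor Fn14 (gene Tnfrsf12a) binds the cytokine TWEAK, and TNBS, a hapten, inflames the colon once ethanol has opened the mucosal barrier. According to the labels, 0.2% TNBS went into the rectum repeatedly for 6 weeks (1.0 ul per g at first, 2.0 ul per g at the end), and colons were collected 3 days after dosing stopped. The labels do not say whether the groups without TNBS received the solvent, how Fn14 was deleted, or what age the mice were. Whether every sample is a separate mouse is not stated either, and the p-values below measure the spread between these samples, which may be technical.

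Macrophages of the gut wall are replaced from blood monocytes, which enter through the chemokine receptor CCR2, and they need signals through the receptor CSF1R to survive. In the healthy colon they take up bacteria and dying cells, and in colitis newly arrived monocytes and macrophages become inflammatory. CSF1R and CX3CR1 are receptors of the lineage, ADGRE1 is the surface antigen that defines mouse macrophages in tissue, and CD68 and lysozyme M (Lyz2) belong to its lysosomes and secretory granules. CD14 presents bacterial lipopolysaccharide to TLR4, FCGR1 binds IgG with high affinity, and ITGAM (CD11b) is an integrin chain. Several of these are shared with other cells: neutrophils carry CD11b and lysozyme M, and eosinophils carry ADGRE1.

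Of the 8 genes, 5 were found in the RefSeq promoter table of build GRCm38.p6: Cd68, Itgam, Lyz2, Cx3cr1 and Fcgr1. The 250 bases before the start of each gene were searched on both strands for GAGGAA, the core of sites bound by the myeloid factor PU.1, and for TGANTCA, the AP-1 motif, which do not overlap in these windows. GAGGAA was found in Cd68, Itgam and Fcgr1 and TGANTCA in Cd68, against 23.3% and 6.75% of all 32851 promoters. Cd68 and Fcgr1, the pair of markers that varied together most closely between arrays of a group, are shown, from chr11:69666171-69666420 and chr3:96293970-96294219, both on the minus strand. Capitals mark the motifs. In Cd68, GAGGAA begins 225 bases and TGAGTCA begins 149 and 24 bases before the start of the gene. In Fcgr1 the core lies on the opposite strand (printed as TTCCTC), 55 bases before the start. A match of letters is a description and shows no binding.
Cd68: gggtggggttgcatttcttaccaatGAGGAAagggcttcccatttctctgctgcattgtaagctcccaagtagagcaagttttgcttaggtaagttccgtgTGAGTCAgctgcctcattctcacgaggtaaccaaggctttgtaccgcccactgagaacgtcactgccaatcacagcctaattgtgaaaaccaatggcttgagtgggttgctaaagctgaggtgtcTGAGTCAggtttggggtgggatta
Fcgr1: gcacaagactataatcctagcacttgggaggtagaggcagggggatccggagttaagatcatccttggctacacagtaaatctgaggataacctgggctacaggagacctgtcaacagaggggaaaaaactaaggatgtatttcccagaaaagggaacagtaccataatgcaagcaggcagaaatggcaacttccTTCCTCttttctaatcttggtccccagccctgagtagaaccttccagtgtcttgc

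The values are deposited log2 expression levels from 2.17 to 15.98, and a value within 0.05 of the lowest is called the floor here (34.6% of all values). Arrays of a group correlated at r = 0.989 to 0.998 over all genes. The mean of 9 genes of colon epithelium (Epcam, Cdx2 and others) lay between 13.21 and 13.45 on every array. This describes the samples, and whether they held other tissue besides colon was not tested. Tnfrsf12a checked the genotype: it lay at 3.84 to 4.17 on the 12 knockout arrays and at 5.86 to 8.24 on the 11 wild-type arrays, though the sources used here do not say whether its probe set lies in the deleted part. RNA integrity, read as the log2 signal of Gapdh at its 3' end minus that at its 5' end, was 0.906 to 0.988 in the knockout with TNBS and 0.965 to 1.17 in wild type with TNBS. The mean of 9 squamous epithelium markers lay at 3.55 to 5.23 without and 5.55 to 7.91 with TNBS on wild-type arrays and at 3.76 to 6.82 and 5.12 to 8.73 on knockout arrays, and that of 10 skeletal muscle markers at 3.00 to 4.74, 3.19 to 6.86, 5.41 to 7.60 and 4.85 to 7.88 in the order of the groups above. Precision depends on how many arrays each group has and on the spread of each gene. A log2 level belongs to its own probe set, so levels are compared between groups and never between genes. Differences are log2 fold changes with their standard error (SE), and a gene is said to have risen or fallen where limma's adjusted p (Benjamini-Hochberg over 18194 genes) was under 0.05.

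**Figure D1:**
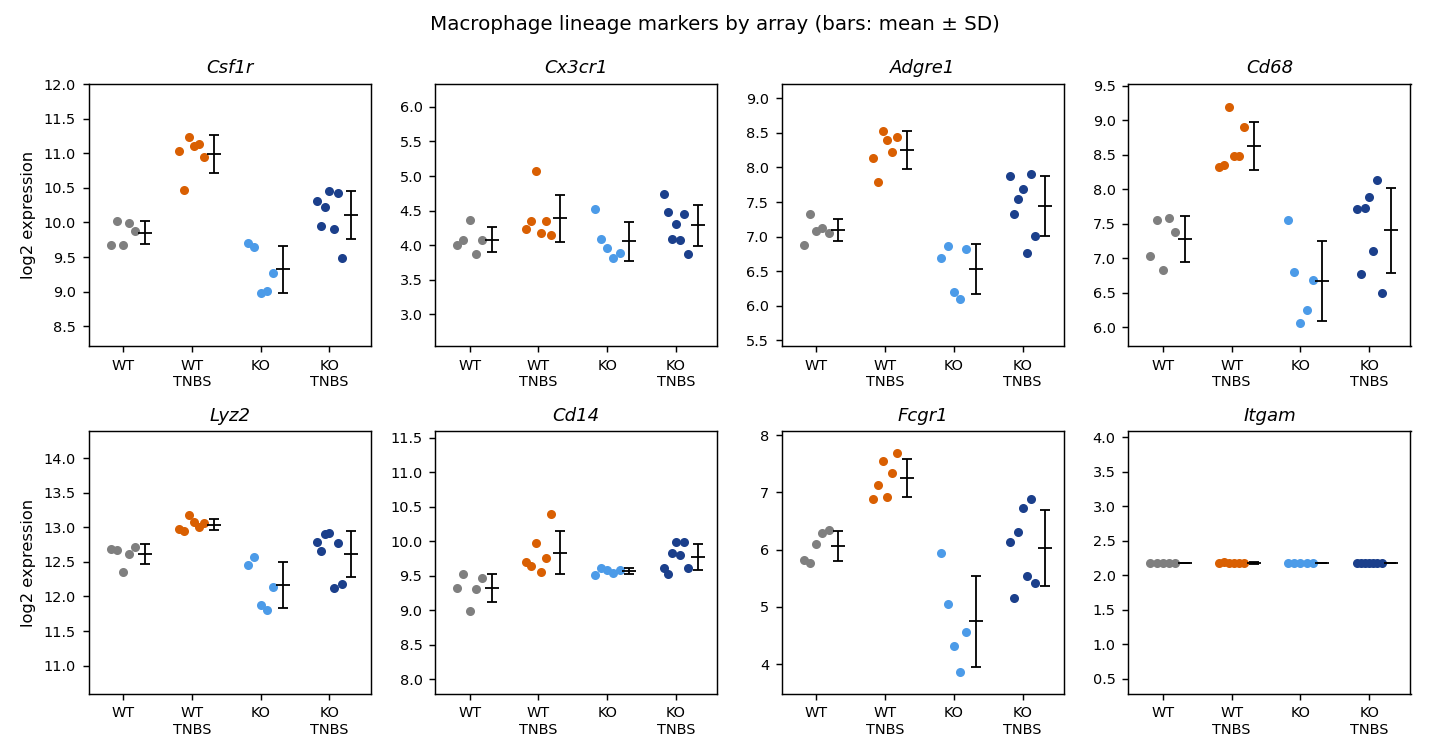
Log2 expression of the 8 markers (main probe set) on each of 23 arrays, by group, with the group mean and SD beside the points. Csf1r, Cd68 and Lyz2 stand higher on every TNBS-treated wild-type array than on any array of the other groups, Cd14 and Cx3cr1 overlap between the TNBS-treated genotypes, and Itgam stays at the floor.

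The first question was how chronic TNBS colitis changed these markers in wild-type colon. Of the 8 markers 5 rose and none fell: Cd68 (1.35 ± 0.30 SE), Fcgr1 (1.19 ± 0.34), Adgre1 (1.16 ± 0.20), Csf1r (1.14 ± 0.18) and Cd14 (0.51 ± 0.13). Over all genes 10.2% rose and 6.27% fell. The median change of the 8 was 0.83, beside 0 over all genes. On 6 of the 8 (these 5 and Lyz2) every TNBS array lay above every untreated array, as it did for 6.99% of all genes. This is whole tissue, so more macrophages and more RNA per macrophage cannot be told apart.

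Among the receptors, Csf1r binds CSF1 and IL-34 and is the defining survival receptor of the lineage. It lay at 9.68, 10.02, 9.68, 9.99 and 9.87 in untreated wild-type arrays and at 10.48 to 11.24 (median 11.07) in the 6 TNBS arrays. The TNBS arrays were all higher, by 2.21-fold (adjusted p = 0.00018). Cx3cr1, the fractalkine receptor, which marks resident gut macrophages, was near the lower end of the scale at 3.86 to 4.37 in untreated arrays and 4.14 to 5.07 (median 4.29) in TNBS arrays. The groups overlapped and the difference of 0.31 ± 0.17 did not pass (95% interval -0.05 to 0.67, adjusted p = 0.271). It was 0.17 without TNBS-treated replicate 3, the highest array, and 0.03 after quantile normalization or with a squamous marker mean as a covariate. The second Cx3cr1 probe set was at or within 0.05 of the lowest value on every array.

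Adgre1, the gene of that surface antigen, lay at 6.87, 7.32, 7.07, 7.12 and 7.06 without TNBS and at 7.78 to 8.53 (median 8.31) with it. The groups did not overlap, and the rise was 2.24-fold (adjusted p = 0.000513). Cd68, a lysosomal glycoprotein of phagocytes, lay at 7.04, 7.55, 6.84, 7.59 and 7.38 without TNBS and at 8.32 to 9.19 (median 8.48) with it. Its rise was 2.54-fold, with no overlap (adjusted p = 0.00358). Lyz2, which encodes a bacteriolytic enzyme, lay at 12.69, 12.68, 12.36, 12.62 and 12.72 without TNBS and at 12.94 to 13.18 (median 13.04) with it. All TNBS arrays were higher, yet the difference of 0.43 ± 0.15 did not pass (adjusted p = 0.0612). With the squamous mean as a covariate it was 0.15 (adjusted p = 0.74) and with median centring 0.26 (adjusted p = 0.0866). Under 4 other settings it passed (0.40 to 0.43, adjusted p = 0.00365 to 0.0487), as it did without knockout replicate 2 or without TNBS-treated knockout replicate 5 or 7, each of which changed the spread and not the difference (adjusted p = 0.0372 to 0.049).

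Lyz1, the Paneth cell lysozyme, is a close relative of Lyz2, and probe sets can hybridise to both. Its main probe set differed with TNBS by 0.22 ± 0.10 in wild type and 0.28 ± 0.10 in the knockout and did not pass in either (adjusted p = 0.174 and 0.0989 over all 34958 probe sets). It lay at 13.02 to 13.25 in untreated and 13.28 to 13.51 in TNBS-treated wild-type arrays, again without overlap. Another Lyz1 probe set lay at 12.03 to 12.86 over all arrays, while a further one lay at only 2.17 to 2.35. How much of the Lyz2 signal comes from Lyz1, or of the Lyz1 signal from Lyz2, was not tested.

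Cd14 lay at 9.32, 9.53, 8.99, 9.31 and 9.46 in untreated and 9.55 to 10.39 (median 9.73) in TNBS-treated wild-type arrays. The lowest TNBS array, at 9.55, was just above the highest untreated one, at 9.53. The rise was 1.43-fold (adjusted p = 0.00892), and it did not pass with only these 2 groups in the fit (adjusted p = 0.0638). Fcgr1 lay at 5.82, 5.77, 6.10, 6.29 and 6.34 without TNBS and at 6.89 to 7.68 (median 7.23) with it. It rose 2.28-fold with no overlap (adjusted p = 0.0198), but did not pass without untreated wild-type replicate 1 (adjusted p = 0.0512) or replicate 2 (0.0505), or with the replicate number as a block (1.07, adjusted p = 0.0616). Its second probe set was at 2.17 to 2.27 on all arrays. Itgam stayed between 2.17 and 2.19 on every array of the study, all at the floor. It therefore says nothing about CD11b in any comparison, and in the main fit it is counted among the genes that did not pass.

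With the mean of the squamous markers as a covariate, 2 of the 5 calls held in wild type, Csf1r (0.83, adjusted p = 0.0151) and Adgre1 (0.79, adjusted p = 0.0336), while Cd68 (0.77, adjusted p = 0.163), Fcgr1 (0.64, adjusted p = 0.399) and Cd14 (0.41, adjusted p = 0.148) did not pass. Of the 9 squamous markers 4 rose with TNBS in wild type and 2 in the knockout. In wild type their mean did not overlap between untreated (3.55 to 5.23) and TNBS-treated arrays (5.55 to 7.91). This fit can therefore hardly separate that mean from TNBS, and the part of squamous tissue in these results was not tested. Centring each array on its median gene moved the median of all genes by -0.17 in this comparison, and the 5 markers stayed called. Of all calls 62% were rises as deposited, 38.3% after quantile normalization and 11.2% after median centring.

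**Figure D2:**
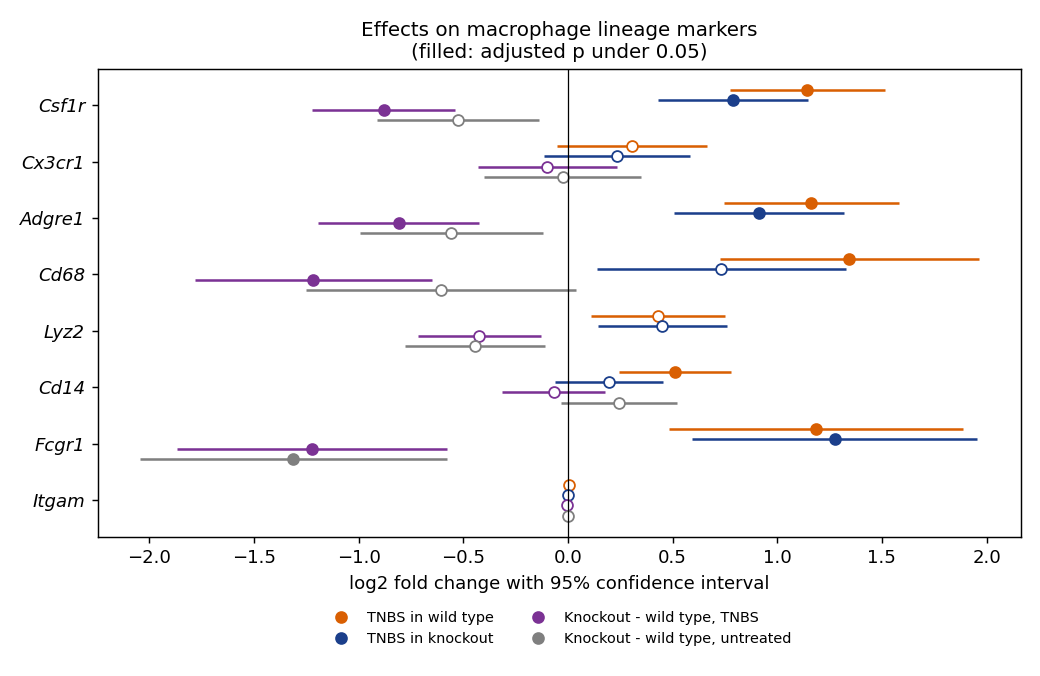
Log2 fold change with its 95% confidence interval for each marker in 4 comparisons. Filled points have an adjusted p under 0.05 in limma. The TNBS effects lie to the right of 0 for 7 markers in both genotypes, and for Csf1r, Adgre1, Cd68 and Fcgr1 the knockout lies below wild type with TNBS.

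The same comparison was made in mice without Fn14. Of the 8 markers 3 rose and none fell: Fcgr1 (1.27 ± 0.33 SE, adjusted p = 0.019), Adgre1 (0.91 ± 0.19, adjusted p = 0.00651) and Csf1r (0.79 ± 0.17, adjusted p = 0.00742). Over all genes 4.08% rose and 4.47% fell, and the median change was 0.59 for the 8 and 0 for all genes. On none of the 8 were the groups free of overlap, as the higher TNBS arrays were for 1.97% of all genes.

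Csf1r lay at 9.70, 9.64, 8.98, 9.02 and 9.27 in untreated knockout arrays and at 9.48 to 10.46 (median 10.23) with TNBS. Only TNBS-treated knockout replicate 7, at 9.48, fell within the untreated range. Adgre1 lay at 6.69, 6.86, 6.19, 6.10 and 6.82 without TNBS and at 6.77 to 7.91 (median 7.54) with it, where replicate 5, at 6.77, was the one below the highest untreated array. Fcgr1 spread widely in the knockout, at 5.95, 5.05, 4.31, 3.87 and 4.57 without TNBS and 5.16 to 6.89 (median 6.13) with it. The untreated array at 5.95 was replicate 1, which also had the highest Cd68, Csf1r and Cx3cr1 of its group and the highest squamous mean (6.82). Without untreated knockout replicate 3 or 4 the Fcgr1 difference did not pass (adjusted p = 0.0583 and 0.0648), nor did it with the Gapdh integrity value as a covariate (0.93, adjusted p = 0.145). That value lay at 0.956 to 1.07 in untreated and 0.906 to 0.988 in TNBS-treated knockout arrays. The covariate fit separates it from TNBS only in part.

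Cd68 lay at 7.56, 6.80, 6.07, 6.26 and 6.69 without TNBS and at 6.50 to 8.13 (median 7.71) with it. Its difference of 0.73 ± 0.29 did not pass (95% interval 0.14 to 1.33, adjusted p = 0.123), but it did without untreated replicate 1 (0.95, adjusted p = 0.0398) or TNBS-treated replicate 7 (0.88, adjusted p = 0.0441). Lyz2 lay at 12.45, 12.56, 11.88, 11.80 and 12.14 without TNBS and at 12.12 to 12.91 (median 12.77) with it. Its difference of 0.45 ± 0.15, beside 0.43 in wild type, did not pass (adjusted p = 0.0639), and was 0.18 with the squamous mean (adjusted p = 0.682) and 0.38 with the Gapdh integrity value as a covariate (adjusted p = 0.243). Of the alternatives 8 called it: 4 other settings (adjusted p = 0.0231 to 0.0385) and the fits without untreated replicate 1 or 2 or TNBS-treated replicate 5 or 7 (adjusted p = 0.0241 to 0.0431). Cd14 hardly varied in untreated knockout arrays, at 9.51, 9.60, 9.59, 9.54 and 9.59, and lay at 9.52 to 9.99 (median 9.80) with TNBS. Its difference was 0.20 ± 0.12 (95% interval -0.06 to 0.46, adjusted p = 0.385), and that of Cx3cr1, at 3.81 to 4.53 without and 3.86 to 4.74 with TNBS, was 0.23 ± 0.17 (-0.12 to 0.58, adjusted p = 0.474). With only the 2 knockout groups in the fit 0 of the 8 were called, at unchanged differences (adjusted p = 0.0501 for Csf1r, 0.0542 for Adgre1 and 0.111 for Fcgr1). With the squamous mean as a covariate 0 were called and the differences shrank, to 0.48 for Csf1r (adjusted p = 0.174), 0.55 for Adgre1 (0.163), 0.74 for Fcgr1 (0.309) and 0.18 for Cd68 (0.954).

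Knockout and wild type were then compared under TNBS. Of the 8 markers 4 were lower in the knockout and none was higher: Fcgr1 (-1.22 ± 0.31 SE), Cd68 (-1.22 ± 0.27), Csf1r (-0.88 ± 0.16) and Adgre1 (-0.81 ± 0.18). Over all genes 6.72% were lower and 3.73% higher. The median difference was -0.62 for the 8 and 0 for all genes. Every knockout array lay below every wild-type array for 3 of the 8 (Cd68, Csf1r and Lyz2), as for 2.68% of all genes.

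Cd68 showed the widest gap between groups that did not overlap: the 7 knockout arrays reached at most 8.13 and the 6 wild-type arrays began at 8.32, a 2.32-fold lower level (adjusted p = 0.00659). Csf1r reached at most 10.46 in the knockout and began at 10.48 in wild type, 1.84-fold lower (adjusted p = 0.00177). Adgre1 overlapped through 1 wild-type array, replicate 2 at 7.78, and was 1.75-fold lower (adjusted p = 0.00776). Fcgr1 reached 6.89 in the knockout and began at 6.89 in wild type, so that single arrays met, and was 2.34-fold lower (adjusted p = 0.0149). Lyz2 reached at most 12.91 in the knockout and began at 12.94 in wild type, and its difference of -0.42 ± 0.14 did not pass (adjusted p = 0.0609). It passed with dim genes left out or with values below log2 5 set to 5, both of which test fewer genes, with the squamous covariate (adjusted p = 0.0161 to 0.0355), and without untreated knockout replicate 2 or TNBS-treated knockout replicate 3 or 4 (0.043 to 0.0491).

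Cd14 and Cx3cr1 did not pass. Cd14 differed by -0.07 ± 0.12 (95% interval -0.31 to 0.18, adjusted p = 0.869) and Cx3cr1 by -0.10 ± 0.16 (-0.43 to 0.23, adjusted p = 0.852), so that for Cd14 a reduction of the size seen for Cd68 lies outside the interval. With the Gapdh integrity value as a covariate, Adgre1 differed by -0.88 and did not pass (adjusted p = 0.0669). Fcgr1 (-1.78), Cd68 (-1.61) and Csf1r (-0.88) passed in that fit (adjusted p = 0.017 to 0.0386). The value hardly overlapped between these groups (0.906 to 0.988 in the knockout, 0.965 to 1.17 in wild type). That fit can therefore hardly separate it from genotype. With the replicate number as a block, Fcgr1 differed by -1.12 and did not pass (adjusted p = 0.0582). Of the 4 calls, all held with the squamous mean as a covariate (adjusted p = 0.00037 to 0.00462) and with only these 2 groups in the fit (0.0125 to 0.0327), and no fit without 1 array lost any of them. Of all calls in this comparison 35.7% were higher in the knockout as deposited, 49.9% after quantile normalization and 70.1% after median centring, under which Cd14 differed by 0.02. The 5 comparisons share groups, so their values are set side by side and not counted as separate evidence.

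Without TNBS the knockout was lower than wild type in 1 of the 8 markers, Fcgr1 (-1.31 ± 0.35 SE, 2.48-fold, adjusted p = 0.0365), with 1.91% of all genes lower and 2.92% higher. That call was lost in 8 of the 23 fits that left out 1 array (each of the 5 wild-type arrays, and knockout replicates 3, 4 and 5; adjusted p from 0.05, just above the threshold, to 0.105), and at an unchanged difference with only these 2 groups in the fit (adjusted p = 0.112) or with the replicate block (0.0591). With values below log2 5 set to 5 the difference shrank to -0.86 (adjusted p = 0.0554). With the skeletal muscle mean as a covariate it was -1.42 and less precise (adjusted p = 0.196). That mean did not overlap between the untreated genotypes (3.00 to 4.74 in wild type, 5.41 to 7.60 in the knockout), so this fit can hardly separate it from genotype. Csf1r (-0.53 ± 0.19, adjusted p = 0.108), Adgre1 (-0.56 ± 0.21, adjusted p = 0.137), Lyz2 (-0.44 ± 0.16, adjusted p = 0.118) and Cd68 (-0.61 ± 0.31, adjusted p = 0.307) did not pass. The 5 knockout arrays of Adgre1, at up to 6.86, lay just below the lowest wild-type array, at 6.87, the one marker of the 8 without overlap (2.18% of all genes were lower in this way). With the squamous mean as a covariate, 4 of the 8 were called (Csf1r, Adgre1 and Lyz2 besides Fcgr1, adjusted p = 0.0416 to 0.0484), and with median centring 3 (Csf1r 0.044 and Lyz2 0.0446 besides Fcgr1). Cx3cr1 differed by -0.03 ± 0.18 (95% interval -0.40 to 0.35), and Cd14 was the one marker with a positive value (0.24 ± 0.13, adjusted p = 0.355). Of all calls 60.4% were higher in the knockout as deposited, 50% after quantile normalization and 33.7% after median centring.

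The levels of 5 markers (Adgre1, Cd68, Csf1r, Lyz2 and Cx3cr1) had the same order by group mean: untreated knockout, untreated wild type, TNBS-treated knockout, TNBS-treated wild type. The neighbours in the middle of that order, untreated wild type and TNBS-treated knockout, overlapped for all 5 (Cd68 7.28 ± 0.33 and 7.41 ± 0.61, SD, n = 5 and 7; Lyz2 12.61 ± 0.15 and 12.62 ± 0.33). For Fcgr1 those neighbours stood at 6.06 ± 0.26 and 6.03 ± 0.67, in the opposite order. For Cd14 the untreated wild-type group was lowest (9.32 ± 0.21), and every pair of neighbours overlapped. Every pair of neighbours overlapped for Cx3cr1 too, which passed in no comparison. Its difference between the TNBS-treated genotypes ranged from -0.17 to 0.04 over the fits without 1 array. The place of Cx3cr1 in the order can thus turn on 1 array.

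Whether TNBS acted differently in the genotypes was tested as the difference of the TNBS effects (knockout minus wild type). Of the 8 markers 0 passed by limma, and 0 had an unadjusted p under 0.05 on the main probe set. Over all genes 1.37% had a called negative and 0.621% a called positive difference (31.1% of calls positive, against 53.6% after quantile normalization and 80.6% after median centring). Cd68 had -0.61 ± 0.41 (95% interval -1.47 to 0.25, adjusted p = 0.536), Csf1r -0.35 ± 0.25 (-0.87 to 0.16, adjusted p = 0.56), Cd14 -0.31 ± 0.18 (-0.68 to 0.06, adjusted p = 0.427), Adgre1 -0.25 ± 0.28 (-0.83 to 0.33, adjusted p = 0.759) and Fcgr1 0.09 ± 0.47 (-0.89 to 1.07, adjusted p = 1). Single arrays moved these values: Cd68 was -0.39 without untreated knockout replicate 1, Adgre1 -0.14 without TNBS-treated knockout replicate 5, Cd14 -0.20 without TNBS-treated wild-type replicate 6, and Fcgr1 ranged from -0.13 to 0.39 over the fits without 1 array. With the Gapdh integrity value as a covariate Cd68 had -0.90 (adjusted p = 0.341). A lower level in the TNBS-treated knockout and a smaller rise with TNBS are therefore different statements here: the first passed for 4 of the 8 markers and the second for 0.

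The 3 probe sets of Csf1r did not give the same size of effect. With TNBS the main probe set rose by 1.14 in wild type and 0.79 in the knockout, the second by 1.47 ± 0.19 and 0.70 ± 0.19, and the third by 1.61 ± 0.21 and 0.69 ± 0.21. In the fit over all 34958 probe sets all of these passed, the last narrowly (adjusted p = 0.0499). The knockout differed from wild type with TNBS by -0.88, -1.12 ± 0.18 and -1.23 ± 0.20 (adjusted p = 0.000631 for the second and the third). The difference of the TNBS effects was -0.35 on the main, -0.77 ± 0.27 on the second (unadjusted p = 0.0102, adjusted p = 0.167) and -0.92 ± 0.30 on the third probe set (unadjusted p = 0.00571, adjusted p = 0.128), and did not pass on any. The third probe set lay at 5.17 to 5.58 and 6.36 to 7.47 in wild type without and with TNBS and at 4.72 to 5.84 and 5.37 to 6.39 in the knockout.

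**Figure D3:**
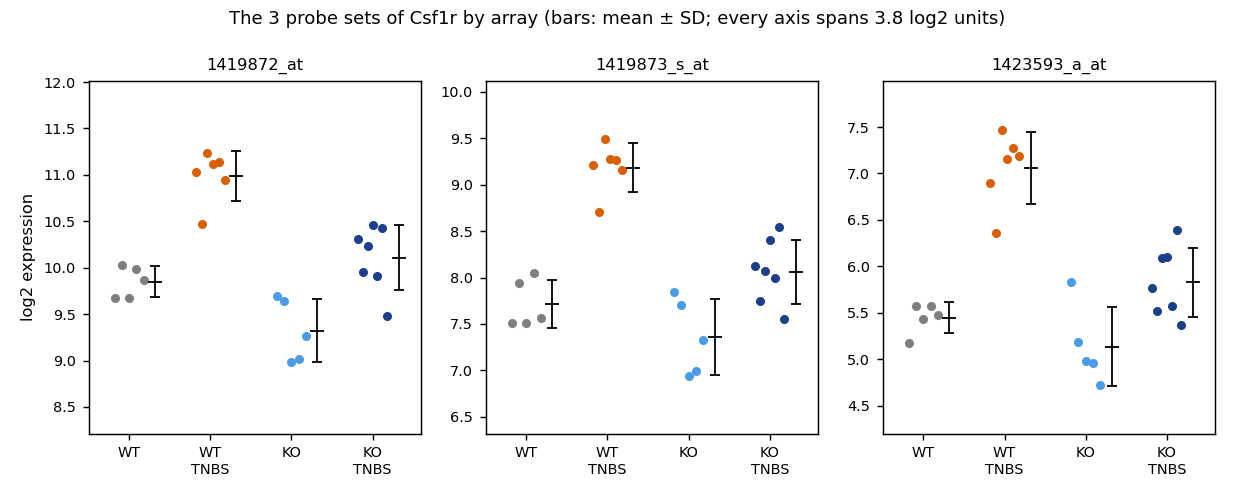
Log2 expression of the 3 Csf1r probe sets on each of 23 arrays, by group, with mean and SD. On all 3 the TNBS-treated wild-type group has the highest mean, and the step from untreated to TNBS-treated knockout narrows from 0.79 on the left to 0.69 on the right.

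Between arrays of the same group, 5 of the markers went up and down together. The deviations from the group means correlated over 23 arrays at r = 0.639 to 0.865 for the 10 pairs among Csf1r, Adgre1, Cd68, Lyz2 and Fcgr1, with the highest for Cd68 and Fcgr1 (r = 0.865, rho = 0.869; r = 0.83 without the 2 arrays farthest from the median). These are descriptions over arrays that share tissue, scaling and RNA quality. Cd14 followed the mean of the other 7 less closely (r = 0.4, rho = 0.486), as did Cx3cr1 (r = 0.482, rho = 0.494), and Itgam, at the floor, did not (r = -0.218, rho = -0.19). The mean of the 8 ranged from 6.57 to 7.32 over untreated knockout arrays and from 7.03 to 7.84 over TNBS-treated knockout arrays, but only from 7.20 to 7.39 over untreated wild-type arrays.

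**Figure D4:**
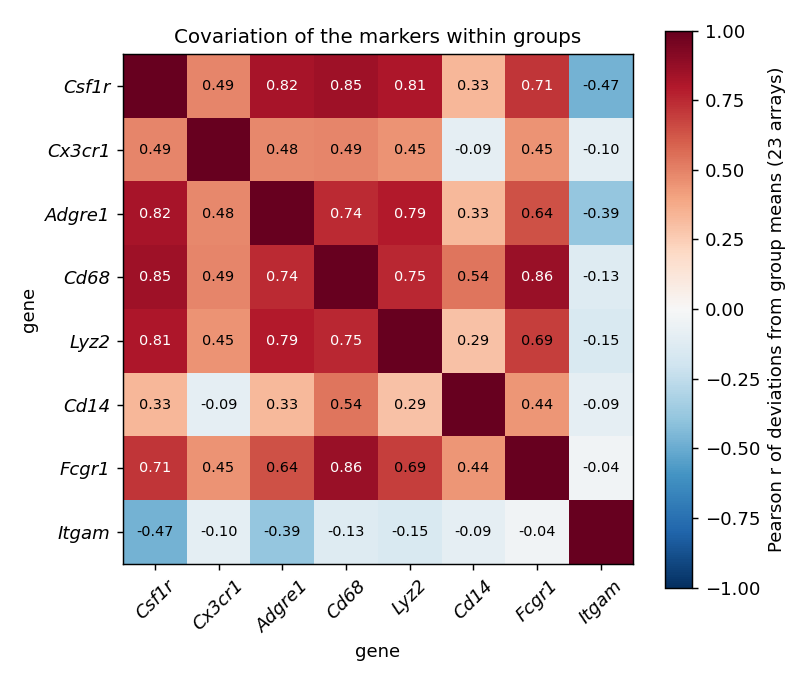
Pearson correlation of the deviations from group means for each pair of the 8 markers, over 23 arrays. The block of Adgre1, Cd68, Lyz2, Fcgr1 and Csf1r is at 0.64 or above, and Cd14, Cx3cr1 and Itgam stand apart from it.

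Among 10770 other genes with a mean of at least log2 5, the 6 whose deviations followed the mean deviation of the 8 most closely were Ms4a6d (r = 0.947, rho = 0.945), C1ra (r = 0.932, rho = 0.925), Fcgr3 (r = 0.928, rho = 0.946), Tyrobp (r = 0.928, rho = 0.93), Rgs10 (r = 0.926, rho = 0.928) and Pf4 (r = 0.922, rho = 0.928). Without the 2 arrays farthest from the median these were 0.902 to 0.947. Fcgr3 encodes a low-affinity IgG receptor and Tyrobp the signalling adaptor DAP12. The mean of 28 other monocyte and macrophage genes followed the 8 at r = 0.932 (rho = 0.951). The mean of the ligands and partners of the markers followed at r = 0.845 (rho = 0.846). Means of other lists followed less closely, with dendritic cell markers at r = 0.611 (rho = 0.57), squamous markers at 0.608 (0.558) and neutrophil markers at 0.598 (0.521). Myeloid transcription factors stood at 0.409 (0.432), and colon epithelium ran the other way (r = -0.658, rho = -0.668).

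The ligands and partner molecules of the 8 markers were 9 genes, with a median change of 0.25 with TNBS in wild type, 0.30 in the knockout and -0.24 between the genotypes with TNBS. In wild type with TNBS 4 rose: Itgb2, the beta chain that pairs with ITGAM (1.43 ± 0.26 SE, adjusted p = 0.000806), Lbp, which delivers lipopolysaccharide to CD14 (1.20 ± 0.24, adjusted p = 0.00157), Fcer1g, the signalling chain of FCGR1 (1.14 ± 0.19, adjusted p = 0.000457), and Csf1, the ligand of CSF1R (0.92 ± 0.22, adjusted p = 0.00708). In the knockout 2 rose, Itgb2 (0.98 ± 0.25, adjusted p = 0.0201) and Fcer1g (0.91 ± 0.19, adjusted p = 0.00554), and Csf1 (0.30 ± 0.21, adjusted p = 0.473) and Lbp (0.68 ± 0.23, adjusted p = 0.0724) did not pass. The difference of the effects did not pass for Csf1 (-0.62 ± 0.31, adjusted p = 0.343) or Lbp (-0.52 ± 0.33, adjusted p = 0.498).

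With TNBS the knockout was lower in Itgb2 (-1.10 ± 0.24, adjusted p = 0.00572), Fcer1g (-0.99 ± 0.18, adjusted p = 0.00141) and Cx3cl1, the ligand of CX3CR1 (-0.24 ± 0.07, adjusted p = 0.0268). Without TNBS 1 of the 9 was lower, Fcer1g (-0.76 ± 0.20, adjusted p = 0.0353). The lipopolysaccharide receptor genes that act with CD14 did not pass in any comparison: Tlr4 differed by 0.08 ± 0.12 with TNBS in wild type and 0.34 ± 0.11 in the knockout, Ly96 by 0.25 ± 0.11 and 0.06 ± 0.10, and Tlr2, a receptor of bacterial lipoproteins, by -0.34 ± 0.19 and -0.34 ± 0.18. Il34, the second ligand of CSF1R, had group means of 2.23 to 2.48, near the floor.

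Of 9 measured transcription factors of myeloid cells, 5 rose with TNBS in wild type, with adjusted p of 0.000126 to 0.0124, among them Runx3 (1.47 ± 0.27), Runx1 (0.64 ± 0.10), Maf (0.59 ± 0.09) and Spi1, which encodes PU.1 (0.51 ± 0.12, from a low mean of 3.20). In the knockout 1 rose, Maf (0.40 ± 0.09, adjusted p = 0.00625). With TNBS 4 were lower in the knockout: Runx3 (-1.09 ± 0.25), Runx1 (-0.52 ± 0.09), Spi1 (-0.45 ± 0.11) and Maf (-0.27 ± 0.08). Their TNBS effects did not pass a test of difference between genotypes (Runx1 -0.45 ± 0.13, adjusted p = 0.0808). The other 4 factors passed in none of the comparisons, and the median of the 9 was 0.51 with TNBS in wild type and -0.33 between the genotypes with TNBS.

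The list of other monocyte and macrophage genes had 28 measured members. In wild type with TNBS 22 rose, 1 fell and 5 did not pass (median 1.01). In the knockout 15 rose and 13 did not pass (median 0.74), and with TNBS 21 were lower and 1 higher in the knockout (median -0.78). The 4 with the smallest p in wild type were Ccr2, the receptor by which monocytes enter tissue (2.10 ± 0.23), Clec7a, the beta-glucan receptor Dectin-1 (3.25 ± 0.41), Aif1, the gene of IBA1 (1.38 ± 0.20), and Mrc1, the mannose receptor (1.30 ± 0.20). Their knockout-minus-wild-type differences with TNBS were -1.02 ± 0.22, -1.64 ± 0.38, -1.01 ± 0.18 and -1.08 ± 0.18. The gene that went the other way, named after its values were seen, was Mertk, a receptor for the uptake of dying cells: it fell by 0.50 with TNBS in wild type (adjusted p = 0.00377) and was higher in the TNBS-treated knockout (0.63 ± 0.10, adjusted p = 0.000621). Siglec1 and Vsig4 were at the floor on all arrays. Without TNBS 2 of the 28 were lower in the knockout, Fcgr4 (-1.38 ± 0.25, adjusted p = 0.00332) and Fcgr2b (-1.10 ± 0.24, adjusted p = 0.0126), which both encode receptors for IgG.

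Markers of other immune cells were also compared, among them neutrophils and eosinophils, which share some of these genes. Of 10 measured neutrophil markers 2 rose with TNBS in wild type, S100a9 (4.11 ± 0.94, adjusted p = 0.00466) and S100a8 (2.92 ± 0.97, adjusted p = 0.0448), and 2 in the knockout, S100a9 (4.14 ± 0.90, adjusted p = 0.00769) and Ltf (2.58 ± 0.78, adjusted p = 0.0458). None passed between genotypes, where the list mean on TNBS-treated arrays was 3.21 to 4.48 (wild type) and 2.76 to 3.99 (knockout), and 4 of the 10, Cxcr2, Elane, Ngp and Mmp8, were at the floor on all arrays. Of 6 eosinophil markers 2 rose in wild type, Alox15 (2.27 ± 0.23) and Siglecf (1.69 ± 0.25), and none in the knockout. These 2 were lower in the knockout with TNBS (-2.16 ± 0.21 and -1.01 ± 0.23), and both had a called difference of TNBS effects (-2.04 ± 0.32, adjusted p = 0.00335, and -1.48 ± 0.35, adjusted p = 0.0328). The eosinophil list mean on TNBS-treated arrays was 2.76 to 3.41 (wild type) and 2.55 to 2.86 (knockout), while Epx, Ccr3 and Prg2, which encode defining eosinophil proteins, were at the floor on all arrays. Of 9 dendritic cell markers 5 rose and 1 fell with TNBS in wild type, 1 rose in the knockout, and 5 were lower in the knockout with TNBS, among them Itgax (-1.29 ± 0.31, adjusted p = 0.00989) and Zbtb46 (-0.60 ± 0.10, adjusted p = 0.000884). Of 9 mast cell markers 8 rose in each genotype, 1 fell in the knockout and 6 were lower in the knockout with TNBS. Of 8 markers of T and NK cells 8 rose in wild type and 7 in the knockout, with 2 lower in the knockout with TNBS. Of 7 B and plasma cell markers 5 rose in each genotype and 0 passed between the genotypes with TNBS. The part of these cells in the values of the 8 genes was not tested.

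**Figure D5:**
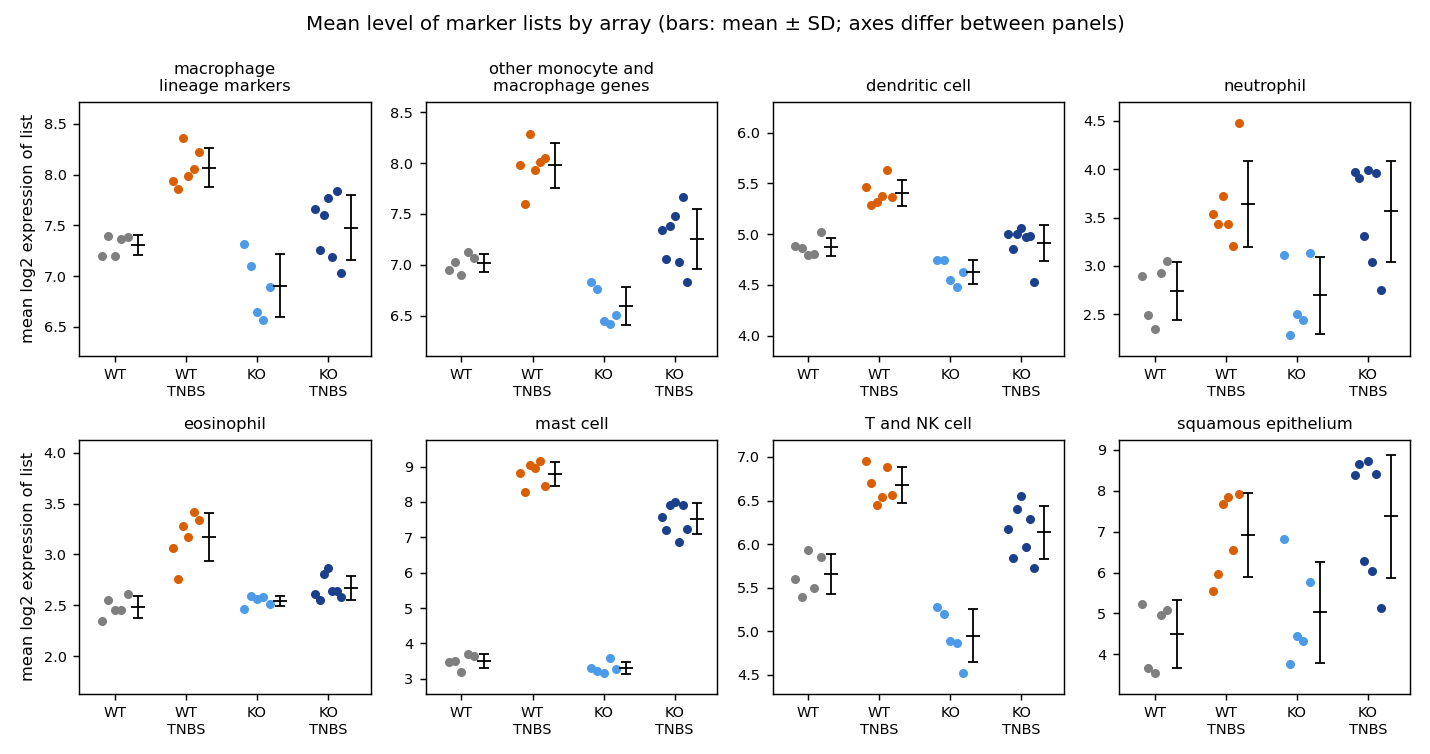
Mean log2 expression of 8 marker lists on each of 23 arrays, by group, with mean and SD. Between the TNBS-treated genotypes the means of the 8 lineage markers, the dendritic cell and the mast cell lists do not overlap, whereas those of the other 5 lists do, the 28 other monocyte and macrophage genes (knockout up to 7.67, wild type from 7.60) among them.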

How the data were processed

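Total expression was measured on 23 Affymetrix arrays of mouse colon. The authors deposited 1 table of normalized log2 values for 45101 probe sets; RMA and GCRMA both appear in the submitters' processing notes, with no word on which made it, and other steps are not given in the sources used here. Scale and direction were read from the values: 34.6% lie within 0.05 of the lowest, a floor below which a transcript has no measured level. Genes were named from a platform annotation, in which 34958 probe sets name 1 gene, 932 several and 9211 none; 34754 matched RefSeq gene IDs (GRCm38.p6). Each of 18194 genes was represented by its brightest probe set (highest mean).

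All 23 arrays, grouped by their titles, entered 1 limma fit (version 3.58.1, R 4.3.3) with a mean per group, and 5 comparisons were drawn from it: the effect of TNBS in wild type and in the knockout, the effect of genotype under TNBS and in untreated mice, and how far the 2 TNBS effects differ. The threshold was an adjusted p of 0.05 (Benjamini-Hochberg over 18194 genes) and intervals are 95%. Besides the 8 markers, named genes are Tnfrsf12a, the ligands and partners, up to 4 genes of each other list with the smallest p in a comparison, genes given as at the floor, and the 6 genes most like the markers; 1 more was named after its values were seen, as said there. Alternatives changed the samples in the fit, array weights, moderation, dim-gene handling, probe set choice, scaling, the replicate number as a block and 3 covariates, and left out each array in turn. The fit was tested on simulated data: of 67 genes shifted by 0.5 log2 units 77.6% were called for TNBS in wild type and 62.7% for the difference of TNBS effects, and of 67 shifted by 1 unit 97% and 89.6%. Whether these shares hold at the spread of the 8 markers was not tested. For the difference of TNBS effects, the SE ran from 0.18 (Cd14) to 0.47 (Fcgr1) among the markers other than Itgam. The 95% intervals of Cd68 (-1.47 to 0.25) and Fcgr1 (-0.89 to 1.07) hold a difference of 1 unit. The lack of calls there does not exclude one of that size. The markers and lists were chosen with earlier results of these data known. Figures were drawn with matplotlib 3.10.9. No labels give array dates, so batches were not tested.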

Additional observations from a re-analysis of the deposited data

Results flagged for a closer look

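In each of 32 sets of values (8 genes in 4 groups) the highest and lowest array were set against the rest with Dixon's test, which marks about 1 set in 20 by chance, and 4 stood apart. Lyz2 on untreated wild-type replicate 3 was 12.357, below the next value of 12.616. Cx3cr1 on TNBS-treated wild-type replicate 3 was 5.068, above the next value of 4.351, and that array also had the highest Cd68 of its group (9.19). Without it the Cx3cr1 difference with TNBS in wild type was 0.17 in place of 0.31. Itgam was 2.195 on TNBS-treated wild-type replicate 2 and 2.174 on TNBS-treated knockout replicate 5, both within the floor, where values have no order.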

How the results depend on the processing

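The counts of markers called were 5, 3, 4, 1 and 0 in the order TNBS in wild type, TNBS in the knockout, genotype under TNBS, genotype in untreated mice, difference of TNBS effects. Those for TNBS in wild type, TNBS in the knockout and genotype in untreated mice moved by over 1.5 times under the settings below. The cause was not tested. That for the difference of TNBS effects stayed at 0. With the squamous mean as a covariate they were 2, 0 and 4 for TNBS in wild type, TNBS in the knockout and the untreated genotypes. With only the 2 groups compared both the TNBS count in the knockout and the untreated count were 0, and array weights gave 5 for TNBS in the knockout. The untreated count was 3 with median centring and 0 with values below log2 5 set to 5, with the replicate block and with the skeletal muscle mean. Without 1 array the counts ranged from 4 to 6, 2 to 5, 4 to 5, 0 to 1 and 0 to 0. The markers called with TNBS between genotypes were 3 to 5 under all settings. Median centring turned Itgam, at the floor, to -0.164 with TNBS in wild type (adjusted p = 0.00179), which follows from the centring. Itgam is thus 1 of the 6 markers called for TNBS in wild type in that setting, beside the 5 of the main fit.

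Over all genes, called counts for TNBS in wild type (2998) were 4682 with every probe set, 11471 with median centring and 1119 with the squamous mean. Counts with every probe set (4682 here and 3345 below) are of 34958 probe sets and not of 18194 genes. The count with values set to 5 is of 11523 genes, so neither is on the same base as the main counts. For TNBS in the knockout (1556) they were 856 with 2 groups alone, 522 with the squamous mean and 813 with the Gapdh signal. For the genotypes with TNBS (1902) they were 3345 with every probe set, 1230 with the replicate block and 738 with the Gapdh signal, and without TNBS (879) 288 with 2 groups alone and 101 with the skeletal muscle mean. For the difference (363) they were 547 with median centring, 566 with values below log2 5 set to 5 and 172 with the replicate block. Without 1 array they ranged from 2250 to 3158, 1014 to 1835, 1391 to 2106, 458 to 1021 and 213 to 443.

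Replicate numbers did not pair the samples: deviations of same-numbered arrays correlated at -0.46 to 0.431, over 0.1 in 10 of 31 pairs, so the block results are a check on a number alone. The dim-gene filter leaves 6 of the 8 markers, without Itgam and Cx3cr1, and the fit with values set to 5 leaves 7. Signal near the floor limits Itgam, Cx3cr1, Spi1 and Il34.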
